A study of Mus musculus with 13 samples.

Results

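The genes described here are 5 keratin genes of stressed epidermis and of the hair follicle companion layer: Krt6a, Krt6b, Krt16, Krt17 and Krt75. They were chosen by name, with no measured value in the rule but with earlier results of these data known. They make up 5 of the 55 keratin genes and 5 of the 49315 genes with counts. RNA-Seq of whole back skin at P4 compared 3 libraries of WT mice with 3 libraries of littermates with the genotype K14Cre+Kctd1fl/flKctd15fl/fl, named DKO. The K14 promoter drives Cre in keratinocytes, so Kctd1 and Kctd15, which code for BTB domain proteins, stay intact in dermis, muscle and other cells of whole skin. The series also holds epidermis from mice 3 weeks old, of the DKO genotype or with Kctd15 alone floxed (K14Cre+Kctd15fl/fl), whose files list 0 for all 49315 genes and are not used here. The labels do not state outright that each library is a separate mouse, and the p-values measure the spread between these libraries.

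Keratins are the intermediate filament proteins of epithelia, and each filament is built from pairs of 1 type I and 1 type II chain. KRT16 and KRT17 are type I chains, and KRT6A, KRT6B and KRT75 are type II chains that can pair with them. In resting skin these genes are used mainly in the hair follicle, nail and other appendages: KRT75 marks the companion layer, a single sheet of cells between outer and inner root sheath, KRT6A is found in the companion layer and outer root sheath, and KRT17 is used widely in the follicle. After wounding or in inflamed skin, KRT6, KRT16 and KRT17 appear in the epidermis between the follicles, for which they are called stress or alarmin keratins.

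Because the question is which of these near relatives changed, it matters how well a read can tell them apart. In the GENCODE vM21 transcripts, the coding sequences of Krt6a (1662 bases) and Krt6b (1665 bases) were 97.8% identical, with 37 differing bases and a longest identical run of 280 bases. Of all stretches of 150 bases, the read length, 18.7% in the Krt6a transcript occurred letter for letter in another gene's transcript (Krt6b or Gm5478) and 18.8% in the Krt6b transcript occurred in Krt6a. The 60 coding bases with the most differences within 1 exon lie in exon 4 of both genes, at chr15:101692484-101692543 (GRCm38, minus strand) in Krt6a and at chr15:101678303-101678362 (minus strand) in Krt6b. They are shown because reads across them can be assigned to 1 of the 2 genes, and capitals mark the 10 bases that differ.
Krt6a: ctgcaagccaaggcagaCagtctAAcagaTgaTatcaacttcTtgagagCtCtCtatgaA
Krt6b: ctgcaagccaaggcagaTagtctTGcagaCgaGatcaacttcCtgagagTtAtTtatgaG

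The type I genes were less alike. The coding sequences of Krt16 (1410 bases) and Krt17 (1302 bases) were 75.8% identical over 1291 aligned bases, and their longest identical run was 55 bases. No stretch of 150 bases of Krt17 or Krt75 occurred in another gene's transcript, while 18.4% of those of Krt16 occurred in Gm11597, an unprocessed pseudogene nearby on the same strand, which had counts of 0, 1 and 1 in WT and 0, 0 and 6 in DKO. The copy of Krt6a, Gm5478, had 0 counts in all 6 libraries. The most different 60 coding bases of Krt16 and Krt17 lie in exon 1 of each, at chr11:100248555-100248614 and chr11:100260717-100260776 (GRCm38, minus strand), and capitals mark the 26 bases that differ.
Krt16: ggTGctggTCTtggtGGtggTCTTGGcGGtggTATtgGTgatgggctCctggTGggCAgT
Krt17: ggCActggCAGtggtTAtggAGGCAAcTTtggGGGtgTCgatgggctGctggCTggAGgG

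The 6 libraries held 11263863 to 17643043 counts, DKO 1 the fewest, and 3 counts correspond to 0.17 to 0.266 CPM. DKO 1 stood apart in hair and muscle genes. Its summed normalized count of 27 inner root sheath and hair shaft genes was 91898, against 177179 to 261346 in the other 5 libraries, and that of 51 skeletal muscle genes was 398015, against 117634 to 188500. DKO 2 stood apart in keratinocyte genes. Its sum of 26 basal and suprabasal keratinocyte genes was 354451, against 264832 to 291672 in the other 5 libraries. The scaling factor of DKO 2 was 0.922, against 1.01 to 1.03. DKO 1 and WT 3 carry the number 40972 in their titles and the other 4 libraries the number 47347, and the labels do not say what it stands for. The gene counts are summed over whole genes and cannot show whether the floxed exons were lost. The paper reports efficient removal of these exons, seen by RNA-Seq in epidermal sheets of single mutants and also in mice of the DKO genotype. Kctd15 had 736, 737 and 763 normalized counts in WT and 1131, 1509 and 1325 in DKO. Kctd1 had 443, 410 and 442 in WT and 506, 985 and 735 in DKO. Every DKO library was above every WT library for both. In edgeR the adjusted p was 0.107 for Kctd15 and 0.342 for Kctd1, and in DESeq2 it was 0.000632 and 0.0783, with log2 fold changes of 0.81 and 0.77.

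All 5 keratin genes passed the filter on low counts and were tested with edgeR's quasi-likelihood test among 20168 genes, with Benjamini-Hochberg adjustment. A gene was called where its adjusted p was under 0.05 and its log2 fold change was over 1 in size, in either direction. Of all genes tested, 14 were called (0.0694%) and 8 of these were higher in DKO (0.0397%). In limma-voom 0.0843% of genes were called, and in edgeR 4.96% were higher and 2.54% lower at an unadjusted p under 0.05. Of the 5 keratins, 1 was called, Krt16. Groups without overlap were found for 13.2% of all genes tested, with every DKO library above every WT library for 7.24% and below for 5.96%. Among the 5 keratins, Krt16 and Krt6b had every DKO library above every WT library, and Krt6a, Krt17 and Krt75 had overlapping groups.

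Krt16 (ENSMUSG00000053797, chromosome 11, 100246091 to 100248902, minus strand, 8 exons) codes for the type I chain that pairs with KRT6 in stressed epidermis. Its normalized counts, that is counts scaled to a common library size, were 281, 284 and 139 in WT and 2927, 2992 and 2372 in DKO. The lowest DKO library was above the highest WT library, and the 3 DKO libraries lay close together, with a coefficient of variation of 12.3%, against 35.5% in WT. The means were 235 ± 83.3 (SD, n = 3) in WT and 2764 ± 341 (SD, n = 3) in DKO, an 11.8-fold ratio. Krt16 rose by 3.56 on the log2 scale (SE 0.265, adjusted p = 0.00148), the second smallest p of all genes tested, and 0.0198% of genes had a larger absolute fold change. It was called under every setting tried.

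Krt6b (ENSMUSG00000023041, chromosome 15, 101676034 to 101680289, minus strand, 9 exons) codes for a type II chain, and was the least abundant of the 5 genes. Its raw counts were 14, 36 and 19 in WT and 446, 112 and 109 in DKO. After scaling these were 14.3, 30.6 and 16.3 normalized counts in WT and 586, 124 and 109 in DKO. DKO 1 stood far above the other DKO libraries, and those were still above every WT library. The mean was 20.4 ± 8.89 (SD, n = 3) in WT and 273 ± 272 (SD, n = 3) in DKO, so that the DKO spread was as large as the mean. The log2 fold change of 3.71 (SE 0.686) was the one closest to that of Krt16 among the 5 genes and missed the threshold in edgeR (adjusted p = 0.146).

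The Krt6b call depended on the tool and on DKO 1. DESeq2, which called 0.783% of the 19663 genes with an adjusted p, gave an adjusted p of 0.00337 for Krt6b. Without DKO 1, edgeR called it as well, with a smaller log2 fold change of 2.48 (adjusted p = 0.0095). Without either WT 1 or WT 3, DESeq2 did not call it (adjusted p = 0.131 and 0.119).

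Krt6a (ENSMUSG00000058354, chromosome 15, 101689932 to 101694307, minus strand, 9 exons), the paralog next to Krt6b, did not pass the test. Its normalized counts were 2220, 2399 and 1322 in WT and 2157, 3331 and 2968 in DKO. DKO 1 lay between the WT libraries, and the other 2 DKO libraries lay above all of them. The means were 1980 ± 577 and 2819 ± 601 (SD, n = 3 each), with a log2 fold change of 0.51 (SE 0.232, adjusted p = 0.673). An interval of 2 SE on either side ran from 0.05 to 0.97 on the log2 scale. With so few libraries it is narrower than a 95% confidence interval, and the unadjusted p of the edgeR test was 0.0539.

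**Figure D1:**
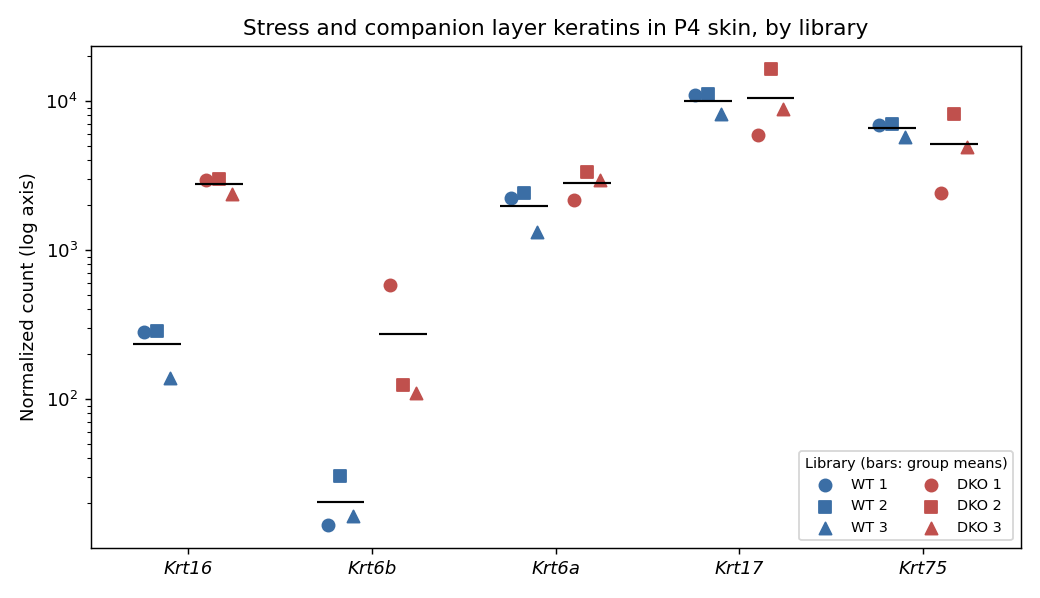
Normalized count of each gene (log axis) in each of the 6 libraries, WT in blue and DKO in red, with horizontal bars at the group means. For Krt16 and Krt6b all red points lie above all blue points, and for Krt6a, Krt17 and Krt75 the colours overlap.

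Krt17 (ENSMUSG00000035557, chromosome 11, 100256217 to 100261029, minus strand, 8 exons) codes for the other type I stress keratin and was the most abundant of the 5 genes. Its normalized counts were 10905, 11071 and 8180 in WT and 5950, 16452 and 8854 in DKO. The DKO group held both the lowest and the highest library, and its coefficient of variation was 52.1%, against 16.2% in WT. The log2 fold change was 0.05 (SE 0.314, adjusted p = 0.985), with 2 SE on either side running from -0.58 to 0.68. Its sign turned under several settings, among them another scaling: it was -0.16 with a keratinocyte gene list as library size, which moved the median of all genes from 0.02 to -0.13.

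Krt75 (ENSMUSG00000022986, chromosome 15, 101563345 to 101573904, minus strand, 9 exons) codes for the type II chain of the companion layer. Its normalized counts were 6899, 7011 and 5715 in WT and 2428, 8125 and 4882 in DKO. DKO 1 and DKO 3 lay below all WT libraries and DKO 2 lay above them. The means were 6542 ± 718 and 5145 ± 2858 (SD, n = 3 each), with a log2 fold change of -0.35 (SE 0.34, adjusted p = 0.929), which became -0.03 without DKO 1 and -0.83 without DKO 2. DESeq2 without DKO 2 gave -0.84 (adjusted p = 0.0323), below the fold threshold.

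Krt75 was set beside the hair genes of the same libraries. The inner root sheath and hair shaft list, which holds none of the 5 genes, summed to 259000, 261346 and 234151 normalized counts in WT and 91898, 241733 and 177179 in DKO, with 0 of its 27 genes at a count of 0 in any library. DKO 1 was the lowest library for this list, for Krt75 and for Krt17, and DKO 3 came second lowest for the list and for Krt75. DKO 2 was the highest library for Krt75 but was below WT 1 and WT 2 for the list. Of the 27 genes tested on the list, 26 had a negative log2 fold change, with a median of -0.41 against 0.02 over all genes tested. None of them was called in edgeR, DESeq2 or limma-voom (0 higher and 3 lower at an unadjusted p under 0.05 in edgeR, against 4.96% and 2.54% of all genes). Krt16 did not follow the list, with 2927 in DKO 1 and 2992 in DKO 2, the DKO libraries with the lowest and highest list sums. In whole skin, fewer cells of a type and less RNA per cell cannot be told apart, and the part of hair follicle content in these values was not tested.

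**Figure D2:**
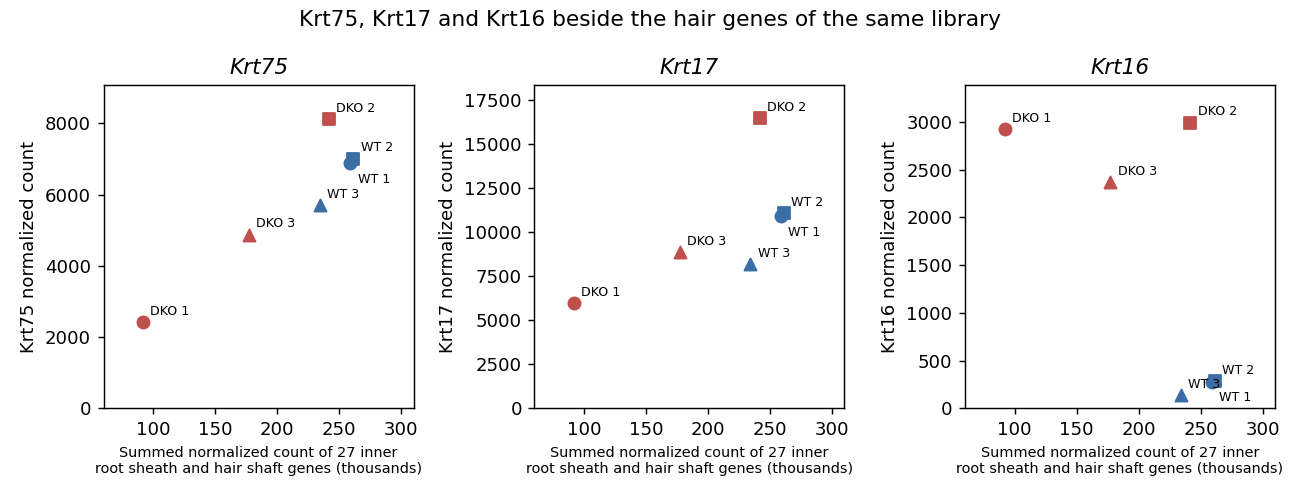
Normalized counts of Krt75, Krt17 and Krt16 (vertical axes) against the summed normalized count (axis divided by 1000) of 27 inner root sheath and hair shaft genes of the same library (horizontal axes). DKO 1 has the lowest hair gene sum and the lowest Krt75 and Krt17, while its Krt16 is close to that of DKO 2.

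Summed markers of some other tissues also differed between the groups. The skeletal muscle list was 117634 to 133977 in WT and 185289 to 398015 in DKO, and the sebocyte list was 41929 to 48525 in WT and 16010 to 24518 in DKO, each without overlap. Of 49 muscle genes tested, 48 had a positive log2 fold change, and 0 were called in edgeR (39 higher and 0 lower at an unadjusted p under 0.05) or limma-voom and 21 in DESeq2. Of 14 sebocyte genes tested, 13 had a negative log2 fold change, and 1 was called in edgeR (0 higher and 11 lower at an unadjusted p under 0.05), 3 in limma-voom and 6 in DESeq2. Over all genes, 0.0694% were called in edgeR, 0.0843% in limma-voom and 0.783% in DESeq2, and 4.96% were higher and 2.54% lower at an unadjusted p under 0.05 in edgeR. Library sizes without the muscle list left the log2 fold changes of Krt16 and Krt6b at 3.54 and 3.71. This scaling moved the median of all genes only from 0.02 to 0.00. It shifts all genes nearly alike and cannot show what the tissues contribute to 1 gene. Lists of neutrophil and macrophage genes (2164 to 2682 in WT, 2630 to 3331 in DKO) and of basal and suprabasal keratinocyte genes (269349 to 272825 in WT, 264832 to 354451 in DKO) had overlapping groups. The dermal fibroblast list overlapped as well. Of its 14 tested genes, 14 had a positive log2 fold change (median 0.37), and of 8 tested neutrophil and macrophage genes 7 did. None of these was called in edgeR, DESeq2 or limma-voom. At an unadjusted p under 0.05 in edgeR, 3 fibroblast genes and 2 neutrophil and macrophage genes were higher and 0 lower. The list of outer root sheath and other follicle epithelium genes had 9 of 12 tested genes with a positive log2 fold change and a median of 0.11, and none was called in edgeR, DESeq2 or limma-voom (1 higher and 0 lower at an unadjusted p under 0.05 in edgeR, against 4.96% and 2.54% of all genes). The part of these tissues in the keratin values was not tested.

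Levels between genes were compared as CPM per kb of exon. In WT the order was Krt17 (427 ± 69), Krt75 (132 ± 14.5), Krt6a (57.8 ± 16.9), Krt16 (9.88 ± 3.51) and Krt6b (0.603 ± 0.263, SD, n = 3 for each), and no neighbours in this order overlapped between libraries. In DKO, Krt17 stayed first (443 ± 230), Krt16 came second (116 ± 14.3) and was followed by Krt75 (104 ± 57.6), Krt6a (82.3 ± 17.6) and Krt6b (8.07 ± 8.04). Krt75 ranged from 49 to 164 in DKO and overlapped with both Krt16 (99.9 to 126) and Krt6a (63 to 97.3), so these 3 genes had no clear order by libraries beyond Krt16 lying above Krt6a.

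As a share of the summed level of the 5 genes, Krt16 made up 1.74%, 1.72% and 1.15% in WT and 24.4%, 11.6% and 15% in DKO. The share of Krt75 was 20.5%, 20.4% and 22.7% in WT and 9.69%, 15% and 14.8% in DKO, and that of Krt17 was 67.7% to 68.4% in WT and 50% to 64.1% in DKO. Both shares were lower in every DKO library than in any WT library. The 5 shares sum to a whole and are not independent of each other. The summed level itself was 508 to 695 in WT and 505 to 1090 in DKO, with overlapping groups.

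**Figure D3:**
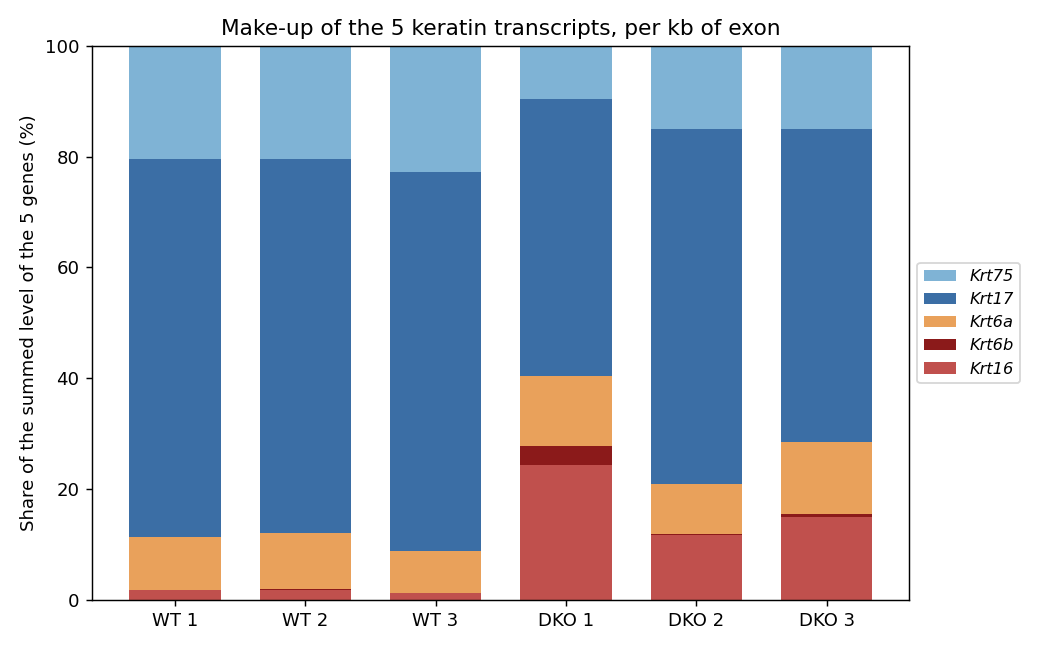
Share of each gene in the summed level of the 5 keratins (percent, vertical axis, levels per kb of exon) in the 3 WT and 3 DKO libraries. The Krt16 segment is 1.15% to 1.74% in WT and 11.6% to 24.4% in DKO.

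Within the type I pair, Krt16 made up 2.51%, 2.5% and 1.67% of the Krt16 and Krt17 counts in WT and 33%, 15.4% and 21.1% in DKO. The difference of 20.9 percentage points had a p of 0.1 in a two-sided exact permutation test, the smallest value that 3 against 3 libraries allow. Within the type II pair, Krt6b made up 0.639%, 1.26% and 1.21% of the Krt6a and Krt6b counts in WT and 21.4%, 3.58% and 3.53% in DKO (difference 8.45 points, exact permutation p = 0.1). The exact binomial 95% interval of the highest WT library ran from 0.883% to 1.74% and that of the lowest DKO library from 2.9% to 4.24%, covering counting error only. Without DKO 1 the Krt6b difference was 2.51 points. How reads common to Krt6a and Krt6b were counted is not given in the sources used here, and such reads could move these shares.

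The 5 genes were also set against the keratins of the basal layer, where keratinocytes divide. The level of Krt16 was 1.76% to 3.23% of that of Krt14, the basal type I chain, in WT and 18.8% to 36.8% in DKO. The level of Krt6b was 0.075% to 0.149% of that of Krt5, the basal type II chain, in WT and 0.44% to 3.57% in DKO. Krt6a was 6.8% to 11.5% of Krt5 in WT and 11.7% to 15.5% in DKO. Krt75 was 20.3% to 24.7% of Krt5 in WT and 10.1% to 19.7% in DKO, and Krt17 was 105% to 127% of Krt14 in WT and 75.5% to 104% in DKO. None of the 5 ratios overlapped between the groups, and those of Krt75 and Krt17 were lower in DKO. The gaps of Krt6a, Krt75 and Krt17 were narrow, and the normalized counts of these genes overlapped. How often such ratios separate over all genes was not counted. Krt5 and Krt14 themselves had overlapping groups, with log2 fold changes of 0.11 and 0.39 (adjusted p = 0.959 and 0.819).

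Between libraries that share a number, the size of the differences varied. For Krt16 the log2 ratio of DKO to WT was 4.40 between the 2 libraries numbered 40972 and 3.25 between the means of the 4 numbered 47347. For Krt6b it was 5.17 and 2.37, and for Krt6a 0.71 and 0.45. Krt75 had -1.23 and -0.10, and Krt17 had -0.46 and 0.20. Krt16, Krt6b and Krt6a were higher in DKO within both numbers, and Krt17 was the 1 gene of the 5 with opposite signs. With 1 library per genotype, the values within 40972 have no replicate check.

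In the keratin gene clusters, no keratin gene beside Krt16 or Krt6b was called. On chromosome 11, Krt16 lies between Krt14 and Krt17, and Krt42, on the far side of Krt17, had 0 to 5 counts per library. On chromosome 15 the order of keratin genes is Krt90, Krt75, Krt6b, Krt6a and Krt5, and Krt90 had a log2 fold change of -0.63 (adjusted p = 0.791). Of the 41 other keratin genes tested, 7 had a positive and 34 a negative log2 fold change, with a median of -0.42, and none was called in edgeR, DESeq2 or limma-voom (2 higher and 7 lower at an unadjusted p under 0.05 in edgeR, against 4.96% and 2.54% of all genes). Many of these 41 genes are also on the inner root sheath and hair shaft list, so their counts are not independent of those of that list. The median log2 difference of that list from the WT mean was -1.39 in DKO 1, -0.30 in DKO 3 and 0.12 in DKO 2. The lower values were thus not shared by all DKO libraries. The smallest p-values among the 41 genes were those of Krt1 and Krt10, the suprabasal pair of differentiating epidermis, and of Krt77, a type II keratin. Krt1 had 25752, 25699 and 29325 normalized counts in WT and 46115, 54202 and 39452 in DKO, without overlap, and a log2 fold change of 0.79 (adjusted p = 0.202 in edgeR and 0.000928 in DESeq2). Krt10 had a log2 fold change of 0.48 (adjusted p = 0.352 in edgeR and 0.0721 in DESeq2) and Krt77 one of -0.79 (0.303 in edgeR and 0.0345 in DESeq2). All 3 were below the fold threshold in both tools.

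**Figure D4:**
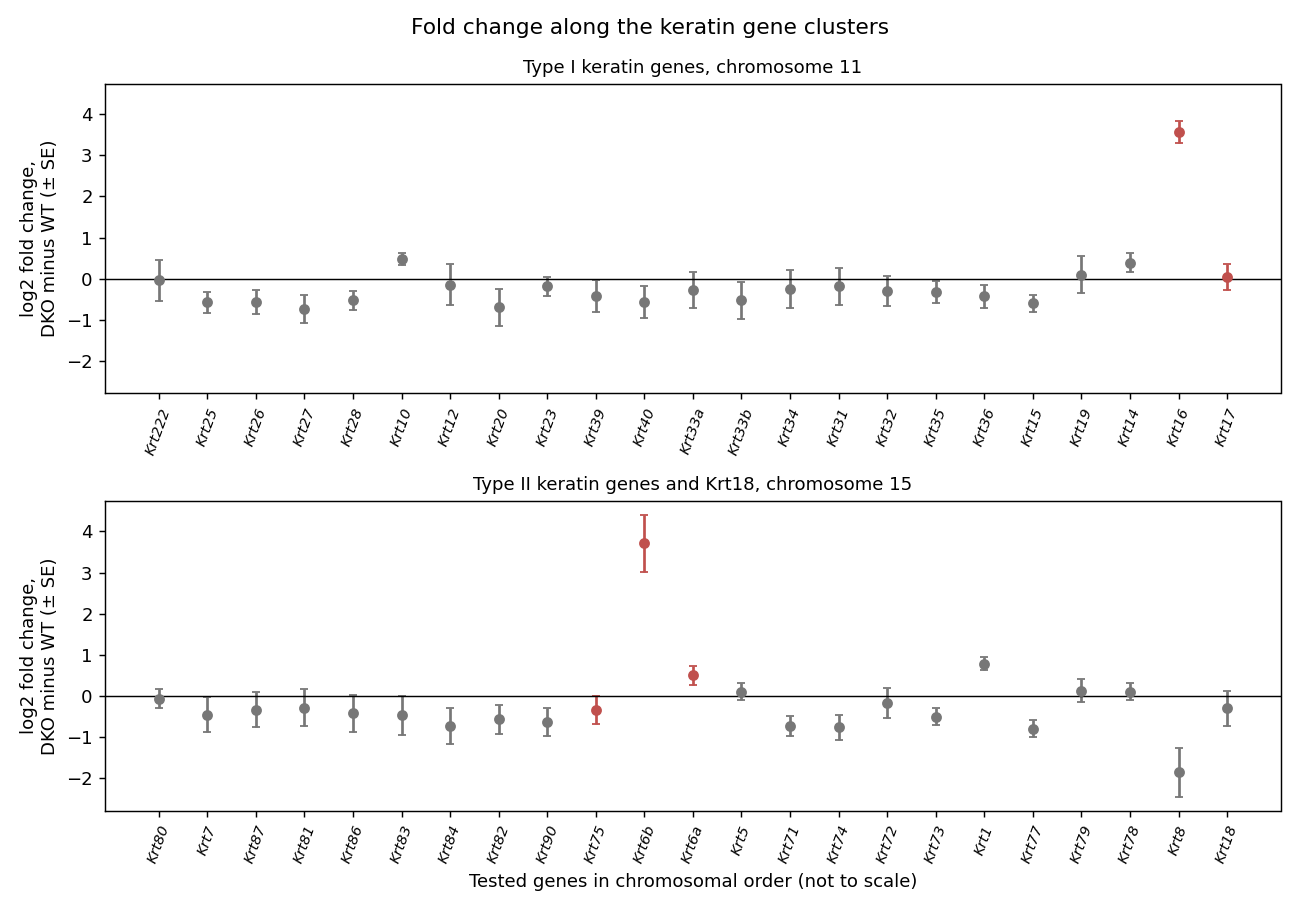
Log2 fold change (DKO minus WT, ± SE, vertical axis) of the tested keratin genes of both clusters in chromosomal order, with the 5 genes described here in red. Krt16 at 3.56 and Krt6b at 3.71 lie above all other keratins, whose highest value is 0.79.

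A list of 53 genes known to be activated in wounded or inflamed keratinocytes served to place the stress keratins among their usual company, without the 5 genes themselves. Of these, 38 were tested, 24 had a positive log2 fold change, the median was 0.12, and 1 was called in edgeR (0.0694% of all genes), against 3 in DESeq2 (0.783% of all genes). For 9 of the 38, every DKO library was above every WT library (7.24% of all genes), and for 0 it was below (5.96% of all genes). At an unadjusted p under 0.05 in edgeR, 6 of the 38 were higher and 2 lower, against 4.96% and 2.54% of all genes. The gene called in edgeR was Stfa2, which codes for a stefin of the cysteine protease inhibitors, with a log2 fold change of 3.24 (SE 0.158, adjusted p = 5.56e-05). Serpinb3a, a serpin, had 366 ± 53.4 normalized counts in WT and 598 ± 102 in DKO, and Sprr2h, a cornified envelope precursor, had 168 ± 63.7 and 472 ± 233 (SD, n = 3 each). Neither of them passed the test in edgeR (adjusted p = 0.281 for both). In DESeq2, Sprr2h was called (log2 fold change 1.48, adjusted p = 0.00405) and Serpinb3a was not (adjusted p = 0.0624). The third gene called in DESeq2 was Sprr1b, another cornified envelope precursor (log2 fold change 1.36, adjusted p = 0.0155, against 0.341 in edgeR), which is named after its values were seen. The summed list was 38819 to 45327 normalized counts in WT and 38854 to 51037 in DKO, with overlapping groups. The list was chosen with earlier results of these data known.

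Among 44 genes for regulators that have been named for stress keratin genes, such as AP-1, NRF2, STAT and GLI factors, 36 had a positive log2 fold change, the median was 0.10 and none was called in edgeR, DESeq2 or limma-voom (3 higher and 0 lower at an unadjusted p under 0.05 in edgeR, against 4.96% and 2.54% of all genes). The smallest p-values were those of Gli2, a transcription factor of Hedgehog signaling (log2 fold change 0.51, adjusted p = 0.321), Stat3, a transcription factor of cytokine signaling (0.36, adjusted p = 0.458) and Nfe2l2, which codes for NRF2, the factor of the antioxidant response (0.37, adjusted p = 0.545). DESeq2 gave adjusted p-values of 0.14, 0.473 and 0.619 for these genes. Of the 5 keratins, the RefSeq promoter table (GRCm38.p6, 250 bases before to 50 after the start) holds Krt75. On neither strand did its window hold TATAAA, the AP-1 motif TGANTCA, the AP-2 motif GCCNNNGGC, the antioxidant response motif TGACNNNGC or the GLI motif GACCACCCA. These occur in 13.6%, 7.81%, 16.6%, 12.4% and 0.253% of the 32851 windows of the table.

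Across the 6 libraries the 5 genes fell into different patterns, described by Pearson's r of log2 CPM over 6 libraries that share genotype and depth differences. Krt17 and Krt75 had an r of 0.90, as did Krt16 and Krt6b, while Krt16 and Krt17 had 0.00 and Krt6b and Krt75 had -0.71. Krt16 and Krt6b were both higher in every DKO library, and this difference between the groups alone raises their r. Within DKO, Krt6b was highest in DKO 1 (586 normalized counts) and Krt16 in DKO 2 (2992). Among 17641 genes with a mean normalized count of at least 20, those most like Krt16 were Tle6, Bex1 and Lif (r of 0.992 each). Bex1 passed the test with a log2 fold change of 2.38 (adjusted p = 0.0155). Those most like Krt6b were Cpt1b, Ryr2 and Ppp1r12b (0.988 to 0.994), of which Cpt1b and Ryr2 are known from striated muscle. Krt17 was most like Tle3, Nr2f6 and Kifc3 (0.998 to 0.999), Krt75 most like Srms, AI661453 and Bmp8a (0.996 to 0.999), and Krt6a most like Irs2, Arhgap22 and Mylk3 (0.993 to 0.994).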

How the data were processed

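Total RNA of whole back skin at P4 (3 WT and 3 K14Cre+Kctd1fl/flKctd15fl/fl libraries, grouped by their labels) was depleted of rRNA and sequenced as 150 bp paired-end reads. Per the labels and the methods, the authors used Trimmomatic 0.36 for trimming, STAR 2.5.2b for mapping to GRCm38 and featureCounts of Subread 1.5.2 for counting on genes. The deposited values are counts, without normalization. The strand setting and the treatment of multi-mapping reads are not given in the sources used here. The opposite-strand genes that overlap Krt75, Krt6b and Krt6a had 0 counts in all 6 libraries. The exon models of Krt6a and Krt6b in the files differ in their ends from GENCODE vM21. Symbols were found for 99.3% of identifiers.

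The main test was that of edgeR 4.0.16 in R 4.3.3 (filterByExpr, TMM, quasi-likelihood F test, Benjamini-Hochberg adjustment over all genes tested). Normalized counts are counts over the library's effective size, times the mean of these sizes. SEs were derived from each fold change and the F statistic behind it. Genes were called by the thresholds that the study's methods give. DESeq2 1.42.0, which the study's methods name, and limma 3.58.1 (voom) were alternatives. On simulated counts, edgeR found all 200 changed genes of 19819, beside 14 false calls, and DESeq2 found 199 of these among 20168 genes, also beside 14 false calls. The changed genes were drawn from well-counted genes and all given the same large fold change, up or down. Their noise was drawn from edgeR's own dispersion estimates. The simulation checks the code and does not measure the power for lower counts, smaller changes or larger spread.

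The 5 keratins and all gene lists were chosen with earlier results of these data known. Named genes are the 5 keratins, Kctd1 and Kctd15, the 3 members of lowest p in a list (given for the wound and regulator lists), the 3 most similar genes per keratin, the neighbouring keratins and the 3 other keratins with the smallest p-values; Gm11597 and Gm5478 were named for their shared sequence and Sprr1b after its values were seen. Alternatives were other tools, scalings and filters, the shared number as a replicate block, and each replicate left out. DESeq2 with the block or without a replicate, and edgeR without the libraries numbered 40972, were chosen after seeing the data.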

Additional observations from a re-analysis of the deposited data

How the results depend on the processing

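Krt16 was called under every setting tried, with log2 fold changes from 3.22 to 3.71. Krt6a and Krt75 kept their direction and were never called. The number of called genes, 14, became 154 in DESeq2, 22 with total counts, 23 with a keratinocyte list as library size, 210 with no filter on low counts, 35 with the replicate block, 150 in DESeq2 with the block and 9 without the 2 libraries numbered 40972. With 1 replicate left out it ran from 2 to 36 in edgeR and from 65 to 205 in DESeq2. It was lowest without WT 2 or WT 3 (2 each), then without WT 1 (3) and DKO 3 (4), and it was 33 without DKO 2. The number of keratins called, 1, became 2 in DESeq2, with no filter and in DESeq2 with the block, and ran from 1 to 2 with replicates left out, the second being Krt6b. Krt6b had a log2 fold change of 3.73 in DESeq2, 3.69 with no filter and 3.23 in DESeq2 with the block, each called, 3.32 with the replicate block in edgeR (adjusted p = 0.0505), and 2.48 to 4.14 with a replicate left out. Without both libraries numbered 40972 it was 2.32 (adjusted p = 0.122). Krt17 turned to -0.06 in limma-voom, -0.01 with total counts, -0.16 with the keratinocyte scaling, -0.02 with the replicate block, -0.03 in DESeq2 with the block, -0.10 without WT 3 and -0.44 without DKO 2. With a replicate left out it ran from -0.44 to 0.31, and it was never called. Krt6a reached an adjusted p of 0.0483 in DESeq2 with the block, below the fold threshold, and Krt75 one of 0.0323 in DESeq2 without DKO 2. The cause of these changes was not tested.

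The correlation of deviations between same-numbered WT and DKO libraries ran from -0.02 to 0.23 over 5 pairs, and that between the 4 differently numbered pairs from -0.15 to -0.10. Every same-numbered value was thus above every differently numbered value. Deviations from the mean of a genotype cancel over its libraries, so a positive value for some pairs makes others negative. The pairs are therefore not independent, and these values cannot decide whether libraries that share a number are more alike. The labels do not decide it either. Whether the number marks a pairing thus stays undecided. The main test used genotype only, with the number as an alternative block. The block left Krt16 called and gave differences within the shared number of 11.4 points for the Krt6b share and 23.5 points for the Krt16 share. With 14 to 36 counts per WT library, the Krt6b fold change rests on few reads.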
